A study of Mus musculus with 3 samples.

Results

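The locus described here is a 600 kb stretch of mouse chromosome 8, from 123150000 to 123750000 on build mm9. It holds Irf8 and the forkhead genes Foxf1 (also written Foxf1a), Foxc2 and Foxl1. The locus was chosen by the length of its H3K27me3 domain, the longest of the series when regions are merged over gaps of up to 3 kb and not at the other gaps tried, so its H3K27me3 is a description and was not tested. Its members are the 195 deposited regions that touch the window, 10 of H3K4me3 and 185 of H3K27me3, out of 139510 in all (21998 of H3K4me3 and 117512 of H3K27me3). All lay wholly inside the window except 1 H3K27me3 region that crossed its right edge. The regions come from chromatin immunoprecipitation and sequencing (ChIP-seq) of neurospheres, floating cultures grown from neural stem cells of the subventricular zone, the stem cell niche of the adult brain. The mice were wild-type male C57BL/6 animals whose age and number the labels do not give. One antibody was against H3K4me3 and the other against H3K27me3, with 1 library for each mark, and an input library with no antibody was not analysed here. The study asked about the chromatin state of promoters, those of long noncoding RNAs (lncRNAs) above all, in adult neural stem cells. With 1 library per mark no value has a replicate error and no test between samples was possible. The cultures were sequenced in bulk, so marks found at the same place may lie on different alleles or in different cells, and the makeup of the cultures was not checked against marker genes.

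H3K27me3, trimethylation of lysine 27 of histone H3, is written by Polycomb repressive complex 2 and marks genes held silent. H3K4me3 marks active promoters and also poised ones, where it can lie together with H3K27me3 in what is called a bivalent state. Irf8 encodes a transcription factor of macrophages, dendritic cells and B cells, and in the brain it is known from microglia. Foxf1, Foxc2 and Foxl1 encode forkhead transcription factors: Foxf1 acts in the mesenchyme of lung and gut and in endothelium, Foxc2 in mesoderm and lymphatic vessels, and Foxl1 in the mesenchyme of the gut. Fendrr, the lncRNA next to Foxf1, is known from lateral plate mesoderm of the mouse embryo.

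Positions of the genes on mm9 were approximate and were given with the definition of the window: Irf8 near 123260000, Foxf1 near 123608000, and Foxc2 and Foxl1 beyond 123625000. An H3K4me3 region lay on each of the first 2 positions. No such position was at hand that would tie Foxc2 or Foxl1 to a single region. The order of the genes was taken from RefSeq on GRCm38.p6, another build, with no coordinate carried over. In that order Emc8, a subunit of the membrane insertion complex of the endoplasmic reticulum, and Cox4i1, a subunit of cytochrome c oxidase, stand before Irf8, with the lncRNA Gm39265 and the pseudogene Gm18709 between them and Irf8. Between Irf8 and Foxf1 stand 9 annotated genes, all of them lncRNAs and none protein-coding, and Fendrr is the last of them. Mthfsd, which carries a methenyltetrahydrofolate synthetase domain, stands between Foxf1 and Foxc2, and nothing is annotated between Foxc2 and Foxl1.

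Promoter sequences show the DNA on which the marks would lie at the Irf8 and Fendrr starts. Of the 4 members, Irf8 matched the RefSeq promoter table, with 2 annotated starts. Each sequence has 300 bases, 250 before the start and 50 from the start on, and CpG dinucleotides are in capitals because CpG-rich promoters are known as the usual sites of both marks. Irf8 is on the plus strand at chr8:120736108-120736407 (first start) and chr8:120738389-120738688 (second start), and Fendrr is on the minus strand at chr8:121083061-121083360. These are GRCm38.p6 positions and cannot be set beside the mm9 positions of the regions.
Irf8, first start: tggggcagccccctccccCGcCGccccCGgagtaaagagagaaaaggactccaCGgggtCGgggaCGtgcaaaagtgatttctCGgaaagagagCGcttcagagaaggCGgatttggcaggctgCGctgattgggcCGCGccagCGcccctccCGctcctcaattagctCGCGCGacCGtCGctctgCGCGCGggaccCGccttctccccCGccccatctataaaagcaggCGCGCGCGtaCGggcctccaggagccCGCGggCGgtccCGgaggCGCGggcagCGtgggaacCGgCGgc
Irf8, second start: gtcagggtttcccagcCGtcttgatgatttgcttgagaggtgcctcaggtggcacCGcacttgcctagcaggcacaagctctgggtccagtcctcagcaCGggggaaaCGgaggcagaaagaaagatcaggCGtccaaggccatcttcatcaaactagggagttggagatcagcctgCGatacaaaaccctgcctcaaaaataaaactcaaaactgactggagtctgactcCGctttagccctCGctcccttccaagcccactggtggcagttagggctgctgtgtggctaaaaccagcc
Fendrr: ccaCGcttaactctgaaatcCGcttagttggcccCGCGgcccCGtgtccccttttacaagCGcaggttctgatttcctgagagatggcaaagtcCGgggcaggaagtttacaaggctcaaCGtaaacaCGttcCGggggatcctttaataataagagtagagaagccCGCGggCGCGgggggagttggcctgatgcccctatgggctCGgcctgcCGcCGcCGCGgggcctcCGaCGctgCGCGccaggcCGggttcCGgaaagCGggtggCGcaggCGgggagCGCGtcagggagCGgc

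The first Irf8 start held 38 CpG dinucleotides, against a median of 7 (interquartile range 3 to 20) over the 32817 promoters of the table, and 95.04% of them held fewer. Its observed over expected CpG ratio was 1.03, against a median of 0.383 over all promoters. The second Irf8 start, 2281 bases downstream, held 8 CpG dinucleotides, and 51.4% of promoters held fewer. The Fendrr start held 31, and 89.4% of promoters held fewer. So Irf8 has a CpG-rich start and one close to the median promoter, and Fendrr has a CpG-rich start.

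A pair of motifs was searched on both strands, chosen after these sequences had been read. The TATA box TATAAA, bound by the TATA-binding protein of the basal transcription machinery, stood 31 bases before the first Irf8 start. At any place in the sequence and on either strand, 13.6% of all promoters of the table held this word. The second Irf8 start held neither word. The forkhead word GTAAACA stood 129 bases before the Fendrr start, and 3.65% of promoters held it on either strand. A match of letters is not a binding site.

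Merged over gaps of up to 3 kb, the H3K27me3 regions formed a domain of 380.0 kb, from 123239640 to 123619627. With this merging it ranked first by length among 53714 domains, and the next, on chromosome 6, had 371.2 kb. The positions of Irf8 and Foxf1 both lay in it, 348 kb apart and near opposite ends. Irf8 stood 20.4 kb inside the left end, and Foxf1 stood 11.6 kb inside the right end. Its 115 regions added up to 80.8% of its length, close to the median cover of 83.6% in the other 102 domains of 100 kb or more.

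**Figure D1:**
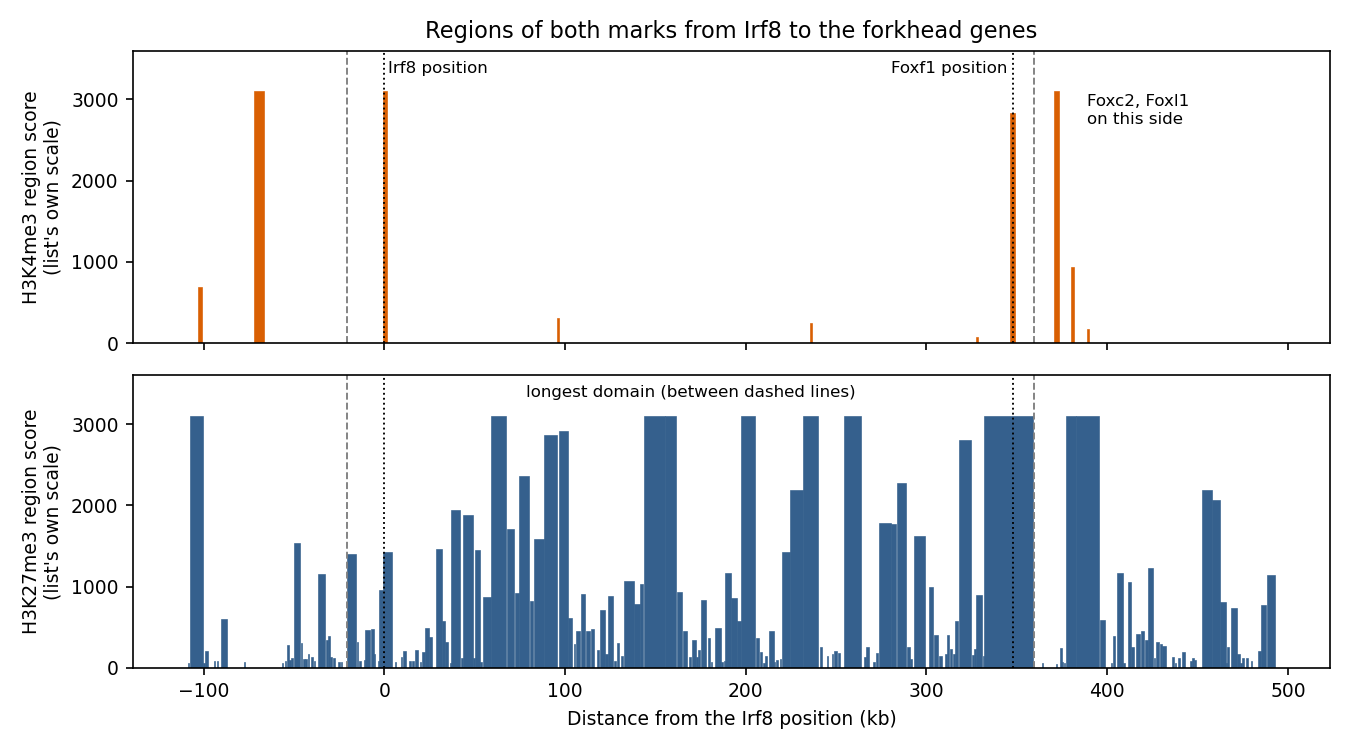
Every region of both marks in the window, H3K4me3 above and H3K27me3 below, drawn as bars over their own extent against the distance from the Irf8 position (kb), with bar height the deposited score, whose scale is the list's own. Dotted lines stand for the Irf8 and Foxf1 positions and dashed lines for the ends of the 380.0 kb domain. H3K4me3 scores are 3100 and 2834 at the Irf8 and Foxf1 positions and 81.68 to 314.4 at the 3 regions between them, with 2 further regions at 3100 outside the domain, while H3K27me3 runs through the interval between the positions with short gaps.

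Of the 10 H3K4me3 regions of the window, 9 overlapped H3K27me3 by at least 1 bp, or 90% (exact 95% interval 55.5 to 99.7%, counting error only, with neighbouring regions not independent). Over the whole list the share was 33.5%. H3K27me3 wholly covered 6 of the 10, against 9.55% of the list, and covered 7 over at least 50% of their length, against 25.3%. The window was chosen for its H3K27me3 and is 71.7% covered by it. These shares follow at least in part from that choice and show no enrichment of their own. Inside the other domains of 100 kb or more, 199 of 200 H3K4me3 regions overlapped H3K27me3, as did all 5 in this domain. The choice did not use the H3K4me3 score directly, which has no stated scale. In both lists it piles up at 3100, and few regions lie above that. In the window 3 of 10 H3K4me3 regions had 3100, against 52.6% of the list at 3100 or above. Of these 3, 1 was covered over 98.6% and the others over 21.4% and 0%. In the other domains of 100 kb or more 48 of 200 H3K4me3 regions (24%) had 3100 or above. The lower share in the window is therefore not free of the choice of a locus rich in H3K27me3.

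The region at the Irf8 position spanned 123259065 to 123261244, a width of 2180 bp, and had an H3K4me3 score of 3100. H3K27me3 regions of 2273 and 4660 bp, with scores of 957.7 and 1423, met on it with 30 bp between them. They covered 98.6% of it, so Irf8 carried an H3K4me3 region almost wholly within H3K27me3. H3K27me3 was patchier around Irf8 than at Foxf1. It covered 71.9% of the 20 kb on the left of the Irf8 position and 55.9% of the 20 kb on its right, the side into which the gene is transcribed. The 20 kb that follow Irf8 held the domain's gap of 2550 bp from 123266510 to 123269059.

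The region at the Foxf1 position spanned 123606371 to 123609229, a width of 2859 bp, with an H3K4me3 score of 2834, below 3100. A single H3K27me3 region of 26.7 kb, from 123592078 to 123618777, covered all of it. This was the 19th widest of the 117512 H3K27me3 regions and the widest of the window. It reached 14293 bp beyond the H3K4me3 region on the left, the side on which Fendrr stands in the gene order, and 9548 bp beyond it on the right. H3K27me3 therefore covered 100% of the 5 kb on either side of the Foxf1 region, while at Irf8 it covered 68.5% of the 5 kb on the left and 63.4% on the right. Both positions carried both marks, with wide unbroken H3K27me3 at Foxf1 and broken H3K27me3 at Irf8. Farther to the right of Foxf1, where the domain ends, this contrast did not hold. The 20 kb bin from 123610000 was covered over 50.2%, against 66.5% in the bin centred on Irf8.

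Between these positions lay 3 further H3K4me3 regions, in the interval where the annotation has only lncRNAs. All 3 were narrow and had low scores. The region at 123355481 to 123356625 (1145 bp, 96.1 kb from the Irf8 position) had a score of 314.4, above 26.3% of the list. The region at 123495517 to 123496707 (1191 bp, 236.1 kb from it) had a score of 253.8, above 23.7% of the list. The region at 123587381 to 123588362 (982 bp, 327.9 kb from it) had a score of 81.68, above 8.15% of the list. Which of the 9 lncRNAs, if any, starts at one of them was not established. Fendrr, the last before Foxf1 in the gene order, may instead start at the region of the Foxf1 position. Its start was not placed on mm9.

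H3K27me3 lay on these 3 in different ways. The regions at 236.1 and 327.9 kb were wholly covered, by H3K27me3 regions of 7874 bp with a score of 3100 and of 3167 bp with a score of 900.6. The region at 96.1 kb coincided with a break in the mark. H3K27me3 regions of 7401 bp (score 2868) and 5215 bp (score 2912) stopped 109 bp and 121 bp inside its left and right ends and left 915 bp free, so only 20.1% of it was covered. Outside those ends H3K27me3 covered 100% of the 5 kb on either side. H3K27me3 over both ends with a gap inside was seen at 2 of the 5 H3K4me3 regions of the domain, this one and, with its gap of 30 bp, Irf8. It was seen at 35 of the 200 H3K4me3 regions (17.5%) in the other domains of 100 kb or more and at 2.71% of the whole list.

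Beyond the right end of the domain, on the side of Foxc2 and Foxl1, lay 3 more H3K4me3 regions within 20 kb of each other. The first of them, from 123630334 to 123633266, was unlike its neighbours. It was 2933 bp wide and had an H3K4me3 score of 3100. The only H3K27me3 on it was a region of 629 bp with a score of 50.37, barely above the lowest score in the list, 50. H3K27me3 covered 21.4% of it and 0% of the 5 kb on its left.

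The next 2 were wholly covered by H3K27me3 regions with scores of 3100. The region from 123639867 to 123641581 (1715 bp, H3K4me3 score 934.8) lay in an H3K27me3 region of 5547 bp. The region from 123648940 to 123650141 (1202 bp, H3K4me3 score 173.9) lay in one of 12.8 kb, the second widest of the window. Those H3K27me3 regions were 73 bp apart. In the gene order Mthfsd, Foxc2 and Foxl1 follow Foxf1. Whether these 3 regions are at their starts was not established, since the gene positions at hand do not reach that far.

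**Figure D2:**
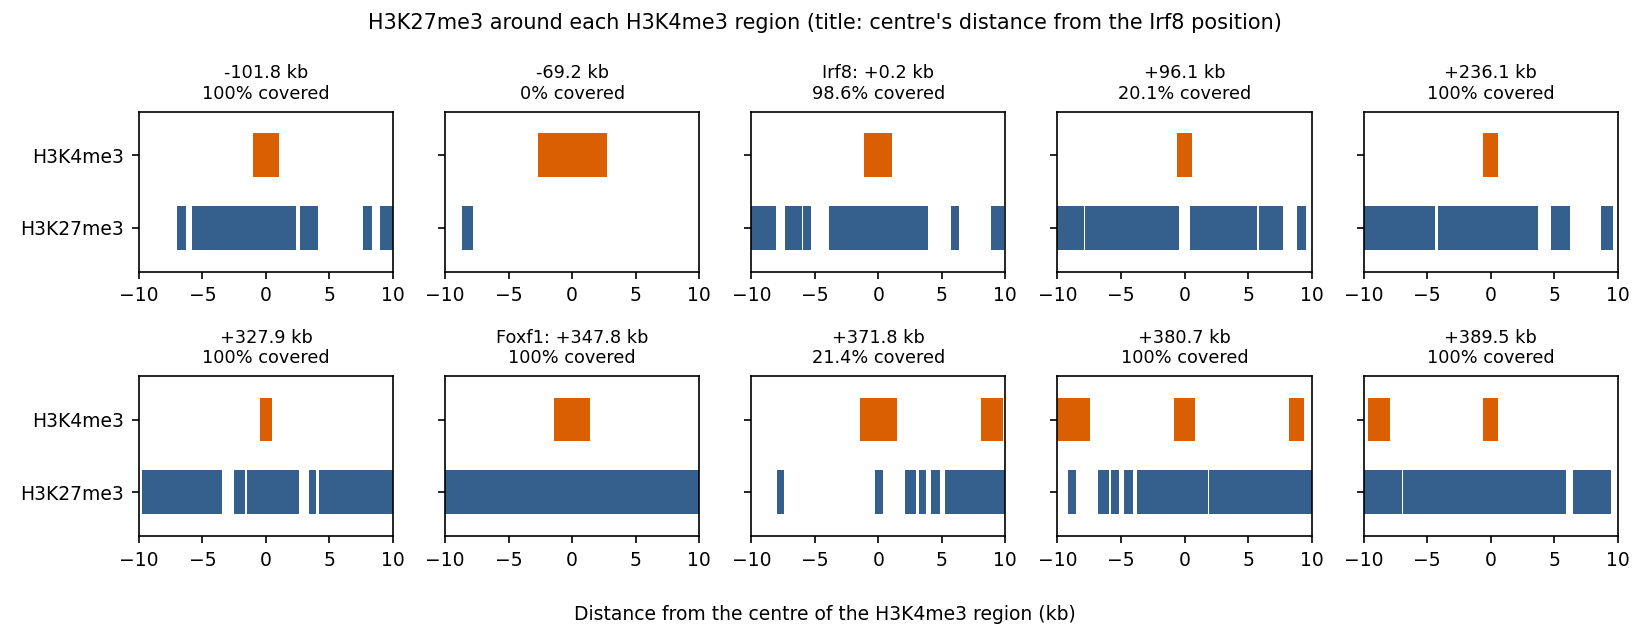
The 10 H3K4me3 regions of the window in order, each drawn with H3K4me3 (upper bars) and H3K27me3 (lower bars) within 10 kb of its centre; panel titles give the distance of the centre from the Irf8 position and the share of the region covered by H3K27me3. The region at 96.1 kb sits over a break in H3K27me3 and the Foxf1 region lies within unbroken H3K27me3, while the region at -69.2 kb has none on it and the region at 371.8 kb little.

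On the left of the domain, towards Emc8 and Cox4i1 in the gene order, lay 2 H3K4me3 regions of opposite kinds. The region from 123188090 to 123193507 was the widest of the window at 5418 bp, wider than 98.1% of the list, and had a score of 3100. It was the only one of the 10 with no H3K27me3 on it, and the mark was also absent from the 5 kb on either side. It stood in the longest gap of the window, 20.3 kb from 123183012 to 123203323. The region from 123157175 to 123159168 (1994 bp, score 695.8) was wholly covered by an H3K27me3 region of 7499 bp with a score of 3100.

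Gaps inside the 380.0 kb domain could not exceed 3 kb, since regions were joined over gaps of up to that length. There were 114, with a median of 453 bp and a longest of 2551 bp, and 6 of them reached 2 kb. Of these 6, 2 lay right of the Irf8 region and began at 123266510 and 123286404, and 4 began between 123502378 and 123528047. None of the 6 touched an H3K4me3 region. Of the 114 gaps, 2 touched one, the gaps of 915 bp and 30 bp described above. H3K4me3 regions made up only 2.20% of the length of the domain, so few contacts say little about the gaps. In the rest of the window 70 gaps had a median of 439 bp, 11 of them reached 2 kb, and 3 touched an H3K4me3 region. These include the gaps above 3 kb that part the domains, so the longest gaps lie outside the domain by construction.

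The borders differed over the nearest 10 kb. By definition each end is followed by more than 3 kb without H3K27me3, so some drop in cover was built in. At the right end H3K27me3 covered 98.2% of the last 10 kb inside the domain and 5.99% of the 10 kb outside it. At the left end it covered 67.0% of the first 10 kb inside and 39.9% of the 10 kb outside. Over 50 kb outside the order was the opposite, with 61.2% covered on the right and 47.0% on the left. A gap of 3196 bp on the left separated the domain from a run of H3K27me3 that began at 123203324, after the gap of 20.3 kb. A gap of 4160 bp on the right was followed by a lone region of 599 bp and a gap of 7183 bp, in which the H3K4me3 region at 123630334 begins. The nearest H3K4me3 region outside the domain was 46.1 kb away on the left and 10.7 kb away on the right.

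**Figure D3:**
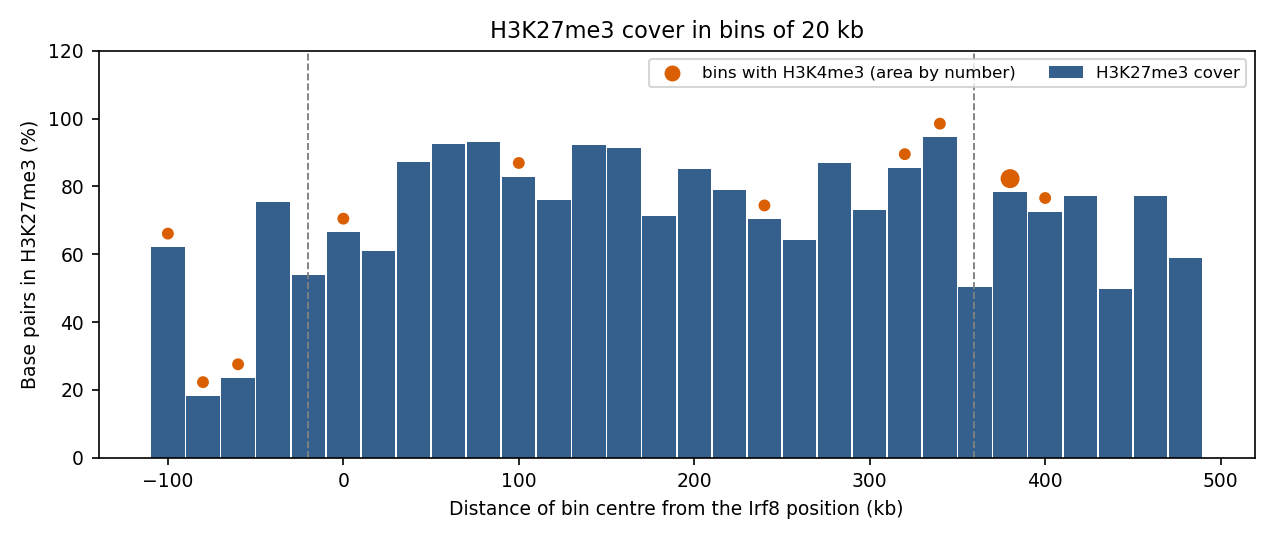
Share of base pairs in H3K27me3 regions (%) in consecutive bins of 20 kb over the window, against the distance of the bin's centre from the Irf8 position (kb); dots stand over bins that H3K4me3 regions touch, with their area by the number of regions, and dashed lines are the ends of the domain. Cover is lowest in the bins with the uncovered H3K4me3 region, at 18.3 and 23.6%, and highest in the bin that holds the Foxf1 position, at 94.5%.

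Along the window the cover of 20 kb bins ran from 18.3%, in the second bin, to 94.5%, in the bin that holds the Foxf1 position. The 3 bins that start at 123290000, 123310000 and 123330000, to the right of Irf8, had 87.1, 92.5 and 93.2%, above the 66.5% of the bin centred on Irf8 itself. High cover was therefore not limited to bins with H3K4me3. The third widest H3K27me3 region of the window, 11.8 kb from 123403438 with a score of 3100, touched no H3K4me3 region. H3K27me3 regions at 3100 or above numbered 10 of 185 (5.41%) in the window, against 2.55% of the list, and 7 of these were in the domain. The median of the 115 H3K27me3 regions of the domain was 1568 bp in width, with quartiles at 919.5 and 3109 bp, and 369.9 in score. Outside the window it was 878 bp in width, with quartiles at 696 and 1314 bp, and 112.0 in score. These widths went into the choice of the locus, and the widest H3K27me3 regions of the window had scores of 3100. Neither widths nor scores are therefore independent of that choice, and both are given as a description.

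H3K27me3 also filled the stretches between neighbouring H3K4me3 regions to unequal degrees. From the Irf8 region to the next on its right, 94.2 kb away, it covered 81.3% of base pairs. Over the longest stretch, 138.9 kb between the regions at 96.1 and 236.1 kb, it covered 82.9%. The 90.7 kb that follow, with 4 of the 6 gaps of 2 kb or more, were covered over 73.9%, and the 18.0 kb before the Foxf1 region over 93.9%. From the Foxf1 region to the one at 123630334, 21.1 kb away, the cover was 51.3%, and it was 99.0% in the 7.36 kb between the last 2 regions. On the left of Irf8, 56.9% of the 65.6 kb to the uncovered region lay in H3K27me3.

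With the same merging, the rest of the window held shorter domains. Left of Irf8 a domain of 33.1 kb (123203324 to 123236443, 19 regions, 70.9% covered) held no H3K4me3. Right of Foxf1 a domain of 27.4 kb (123631570 to 123658970, 7 regions, 87.7% covered) overlapped the 3 H3K4me3 regions on the side of Foxc2 and Foxl1. The first of them began 1236 bp outside the domain's left end and was only 21.4% covered. Domains of 30.5, 13.4 and 27.7 kb followed, with no H3K4me3 in any of them. They were parted by gaps of 3024, 3117 and 3556 bp, just above the 3 kb over which regions were joined.

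Against the genome, the window as a whole was 71.7% covered by H3K27me3. The median of 4390 other windows of the same length was 1.67% (interquartile range 0.687 to 6.06%), and 3 of them reached the cover of this one. The window was placed around a long domain, while the others were fixed tiles that can cut domains. Its high cover therefore follows at least in part from the choice. The window held 10 H3K4me3 regions, against a median of 3 (interquartile range 1 to 7), and 671 other windows held as many or more. The 5 H3K4me3 regions in the domain were above the median of 2 in the other 102 long domains, of which 4 held as many or more and 20 held none. Over all 103, 80.6% held H3K4me3. Per length the domain was close to the median, with 1.32 H3K4me3 regions per 100 kb against 1.24 over the others, and 51 of the 102 had more.

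The cover and scores of the H3K4me3 regions in the domain were set beside those of the other long domains. H3K27me3 wholly covered 3 of 5 in this domain and 118 of 200 (59%) in the others. A score of 3100 or above was reached by 1 of 5, the Irf8 region, and by 48 of 200 (24%) in the others. In the 50 kb outside its ends 3 of 4 H3K4me3 regions overlapped H3K27me3, against 73 of 178 outside the others. With so few regions at 1 locus these are descriptions with no test.

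**Figure D4:**
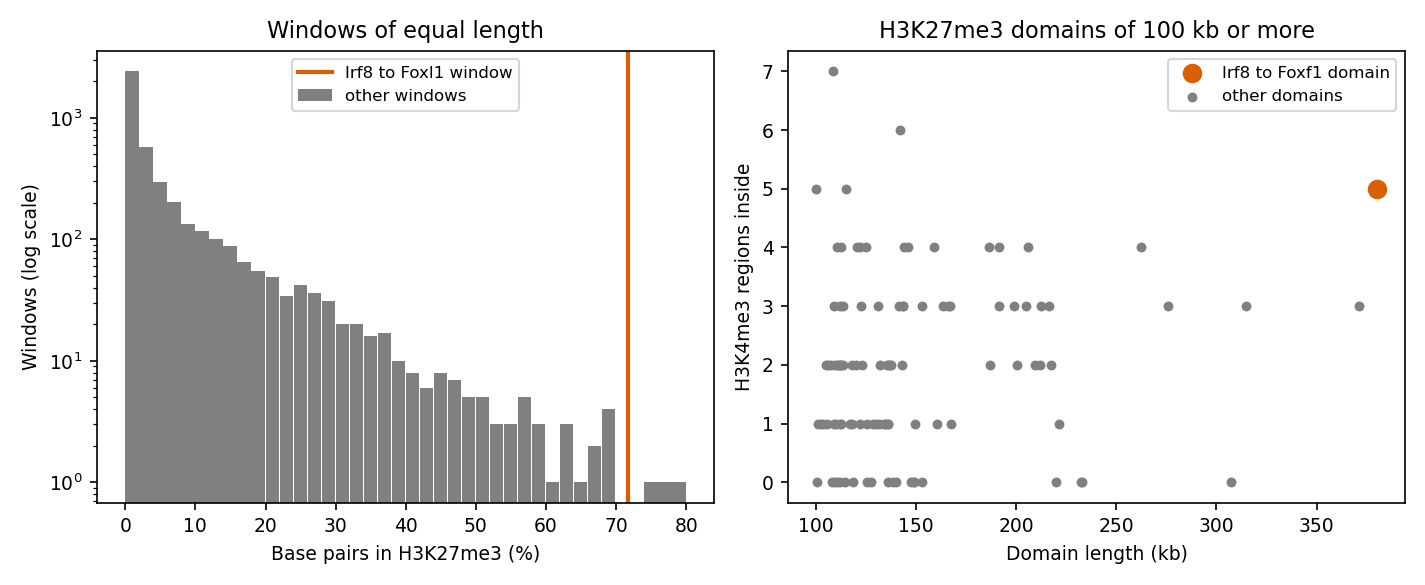
Left, number of windows of the same length over the genome (log scale) by their share of base pairs in H3K27me3 (%), with a line at the 71.7% of the Irf8 to Foxl1 window; right, number of H3K4me3 regions against length (kb) for domains of 100 kb or more, 1 point each. The window, which was chosen for its H3K27me3, lies in the far upper tail. The domain, the longest with merging over up to 3 kb, does not hold the most H3K4me3 regions.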

How the data were processed

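The deposited files list the start, end and score of each region, with 1 file per mark. Per the submitters' processing notes, Bowtie 1.1.2 and mm9 were used. MACS is known only from the names of the regions in the deposited files, which hold 1 library each. Not given in the sources used here are its version and threshold, the read filters and the role of the input in the calling. The score made by the authors starts at 50.01 (H3K4me3) and 50 (H3K27me3), has no stated scale, and was compared only within a list. Read counts and depth are unknown, so no region has a detection limit.

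The window, its members and the motifs were chosen with earlier results of these data known. Gene positions on mm9 came only with the definition of the window. Regions were taken when they touched the window, an overlap was at least 1 bp, and H3K27me3 domains were merged over gaps of up to 3 kb. Windows of the same length were tiled over the assembled chromosomes, up to the last region end. Positions are counted from 1. Named genes are the 4 members and those between or next to them in the annotation. Emc8, Cox4i1, Gm42046 and 5033426O07Rik lie farther out and were named after the order had been seen. Intervals of shares are exact binomial (Clopper-Pearson). Python 3.11.15 was run with pandas 2.3.3, NumPy 2.4.6 and SciPy 1.17.1, and figures were drawn in matplotlib 3.10.9. The scripts were tested on simulated lists, and shared base pairs differed by 0 from those of bedtools 2.31.1. Alternatives were other merging gaps, overlap minimums and score cutoffs. Foxf1, Foxc2 and Foxl1 promoters and cell type markers were not analysed here.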

Additional observations from a re-analysis of the deposited data

How the results depend on the processing

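The extent of the domain depended on the merging gap. The longest domain of the window, 380.0 kb and first in the genome over gaps of up to 3 kb, was 75.2 kb (rank 35, with 1 H3K4me3 region inside) over 1 kb, 213.8 kb (rank 5, with 2) over 2 kb, 438.6 kb (rank 4, with 5) over 5 kb and 866.9 kb (rank 6, with 10) over 10 kb. At 5 kb the longest was another domain, to the right from 123631570, and the one with Irf8 and Foxf1 had 421.1 kb and rank 6. At 1 and 2 kb neither gene position lay in the longest domain. With H3K27me3 scores of at least 100 it had 198.2 kb (rank 10, with 1 H3K4me3 region), again without either gene position. H3K27me3 covered 71.7% of the window as reported, 66.9% with scores of at least 100, 66.3% with scores at or above the median of the list, and 89.9% after merging, which fills gaps by construction. The 9 of 10 H3K4me3 regions with H3K27me3 stayed 9 with 200 bp shared or with merged regions. With 50% covered they were 7 of 10, against 25.3% of the list. With both lists at or above their median scores 1 of 3 (33.3%) remained. The H3K4me3 median of 3100 left 3 regions. The H3K27me3 median of 112.1 took away the overlap of the region at 123630334, whose H3K27me3 score was 50.37. The list's share is not given here for 200 bp, merged regions or median scores, so those counts cannot be read as particular to the locus. No paired analysis was possible because there is 1 library per mark, and for the same reason no replicate could be left out.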

Other observations

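H3K27me3 went on beyond the window to the right. From 123203324 to 124070181, a stretch of 866.9 kb, no gap in H3K27me3 was longer than 10 kb, and 75.3% of it was covered. It ended at stretches of 20.3 kb on the left and 32.6 kb on the right with no H3K27me3 region. The assembled chromosomes held 22810 such stretches of 20 kb or more. Right of the last H3K4me3 region of the window, at 123650141, the next one began at 123906112, so 256.0 kb had no H3K4me3 region while H3K27me3 continued. Within it lay a domain of 135.8 kb, from 123743674 to 123879482, that held no H3K4me3 region and ranked 50 by length. In the gene order 3 lncRNAs, Gm33633, Gm42046 and 5033426O07Rik, follow Foxl1.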
